A study of Chlorocebus sabaeus with 32 samples.

Results

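The cell division set comprised 38 genes of the DNA replication and mitosis programme, taken by symbol from the 33994 gene rows of a hippocampal count table. Of these, 16 act around S phase, 20 act in G2 and mitosis, and 2 are D-type cyclins, which act earlier in the cycle. Total RNA from the hippocampus of vervet monkeys (Chlorocebus sabaeus) was depleted of ribosomal RNA and sequenced as stranded libraries from 32 samples. Each library carried its own identifier and was taken as 1 animal.

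All libraries carried a single age label, under 1 year, and no genotype, treatment, sex or exact age was given. The only grouping in the labels was the 4 digits that open each title. The groups are called prefix-2009 (14 libraries), prefix-2010 (16) and prefix-2011 (2) after these digits, and the labels do not say what the digits stand for. A second number in each title lay above 20000 in 9 libraries of prefix-2010 and in both of prefix-2011, and below it in the other 7 of prefix-2010 and in all of prefix-2009. The study addressed developmental change in the hippocampal transcriptome, but the labels order no library along development.

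Before a cell copies its DNA, the MCM helicase is loaded onto replication origins, and E2F transcription factors switch on the genes of replication and nucleotide synthesis. Later, cyclin B with CDK1 drives entry into mitosis, where kinesins, centromere proteins and checkpoint kinases move and monitor the chromosomes, and the transcripts of these genes peak in G2 and M. In the postnatal primate hippocampus, progenitors of the dentate gyrus and oligodendrocyte precursors still divide, while neurons do not. Many S-phase genes also serve DNA repair or nucleotide supply and are transcribed in cells that do not divide.

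Gene counts per library ran from 9347635 to 19673621, with a median of 16201657, and 51.3% to 67.1% of reads counted lay in no gene feature. Replicate 1 of prefix-2009 held both the lowest total and the highest such share. Levels are given as CPM, counts relative to the scaled library total, and a count of 3, the most that a count of 0 allows, was worth 0.152 to 0.321 CPM. Levels of different genes were not compared, because no gene lengths were used. In bulk tissue, a smaller number of dividing cells cannot be told apart from less of these transcripts per cell.

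Of the 38 genes, 37 reached 10 counts in at least 16 libraries and were tested. UBE2C, which encodes the ubiquitin-conjugating enzyme of the anaphase-promoting complex, had 0 to 7 counts per library, and no library reached 10. Its level lay between 0 and 0.265 CPM in prefix-2009 and between 0 and 0.502 CPM in prefix-2010, around or little above what 3 counts are worth. At the low end of the tested genes stood AURKB, with a median of 14 counts, CDK1 with 15 and CCNB2 with 17. These 3 were counted thinly, and small differences in them were not detectable at this depth.

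Of the 37 tested members, 7 differed between the title prefixes (edgeR's quasi-likelihood test, Benjamini-Hochberg adjusted p under 0.05 over 21377 genes, called edgeR adjusted p below). Higher in prefix-2010 were 4 of 19 tested mitotic genes (BUB1, CENPE, BUB1B and TPX2) and 2 of 16 S-phase genes (MCM7 and MCM6), and 1 gene, the D-type cyclin CCND2, was lower. Across all genes tested, 7.52% were called higher and 6.38% lower, so the 6 of 37 higher members lay above and the 1 lower member below the background share. At an unadjusted p under 0.05, 15 members were higher and 2 lower, against 14.7% and 13.7% of all genes. For all 7, the ranges of the groups overlapped.

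BUB1, a kinase of the spindle assembly checkpoint, had the largest difference. It ran from 0.295 to 1.97 CPM in prefix-2009, with a median of 1.08, and from 1.00 to 3.28 CPM in prefix-2010, with a median of 1.85. All but 1 of the 16 libraries of prefix-2010 lay above the median of prefix-2009. The fitted log2 difference was 0.78 ± 0.19 (SE), a 1.72-fold higher level (edgeR adjusted p = 0.00716). BUB1B, which encodes the checkpoint protein BubR1, showed medians of 2.05 CPM (range 1.14 to 3.91) in prefix-2009 and 2.75 CPM (range 2.23 to 4.31) in prefix-2010. Every library of prefix-2010 exceeded the prefix-2009 median, and the highest values of the groups lay close together. Its log2 difference was 0.50 ± 0.14 (edgeR adjusted p = 0.0185).

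CENPE, the kinesin that carries chromosomes to the spindle equator, ranged from 2.55 to 5.44 CPM in prefix-2009 (median 3.13) and from 3.38 to 10.2 CPM in prefix-2010 (median 4.83). All 16 libraries of prefix-2010 lay above the median of prefix-2009. The log2 difference was 0.56 ± 0.14, or 1.47-fold (edgeR adjusted p = 0.00946). TPX2 activates Aurora A on spindle microtubules. Its level ran from 3.24 to 8.29 CPM in prefix-2009 (median 5.83) and from 5.40 to 9.26 CPM in prefix-2010 (median 7.04), and the groups overlapped over most of their range. The log2 difference of 0.28 ± 0.10 passed narrowly (edgeR adjusted p = 0.0442), and the call was lost when any 1 of 18 of the 32 libraries was left out (edgeR adjusted p from 0.0150 to 0.0791).

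The remaining mitotic genes were mostly at higher medians in prefix-2010 without passing the test. MKI67, which encodes the Ki-67 antigen of cycling cells, had a median of 2.10 CPM (range 1.46 to 5.97) in prefix-2009 and 3.51 CPM (range 1.83 to 6.32) in prefix-2010. Its log2 difference was 0.57 ± 0.21 (edgeR adjusted p = 0.0678). In prefix-2009 the 2 highest libraries stood far above the other 12, at levels found at the top of prefix-2010. TOP2A, the topoisomerase that untangles sister chromatids, had a log2 difference of 0.41 ± 0.16 (edgeR adjusted p = 0.0915). CDK1, the mitotic kinase, had one of 0.61 ± 0.23 (edgeR adjusted p = 0.0752). Over the 19 mitotic genes, 17 had a positive log2 difference, and the median was 0.28, beside a median of -0.00056 over all genes tested. The 2 with a negative value were AURKA, the Aurora A kinase (-0.18), and CCNA2, which encodes cyclin A2 (-0.12), and neither passed.

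Among the S-phase genes, the MCM helicase subunits carried the calls. MCM7 ranged from 7.95 to 12.1 CPM in prefix-2009 (median 9.88) and from 9.61 to 14.9 CPM in prefix-2010 (median 11.8). In prefix-2010, 14 of 16 libraries were above the prefix-2009 median. The log2 difference was 0.27 ± 0.07 (edgeR adjusted p = 0.00815). MCM6 ranged from 20.5 to 31.3 CPM in prefix-2009 (median 28.2) and from 23.1 to 37.5 CPM in prefix-2010 (median 32.4), with 12 of 16 libraries above. Its log2 difference of 0.21 ± 0.07 (edgeR adjusted p = 0.0371) lost its call without any 1 of 10 libraries. The other subunits of the same ring, MCM2, MCM3, MCM4 and MCM5, had log2 differences of 0.12, 0.09, 0.05 and 0.23 and were not called.

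The other licensing factors gave mixed values. CDT1, which loads the helicase, had a log2 difference of 0.29 ± 0.11 (edgeR adjusted p = 0.0812), and its inhibitor geminin (GMNN) one of 0.11 ± 0.07 (edgeR adjusted p = 0.289). CDC6, the partner of CDT1 in loading, had medians of 2.47 and 2.62 CPM in prefix-2009 and prefix-2010. The nucleotide enzymes pointed both ways. TYMS, thymidylate synthase, had medians of 5.13 and 3.87 CPM and a log2 difference of -0.35 ± 0.13 (edgeR adjusted p = 0.0682), with 4 of 16 libraries of prefix-2010 above the prefix-2009 median. RRM2, the cell-cycle-regulated subunit of ribonucleotide reductase, had medians of 1.65 and 1.96 CPM and a log2 difference of 0.39 ± 0.16 (edgeR adjusted p = 0.0989), while the other subunit, RRM1, had one of 0.06 ± 0.06. PCNA, the sliding clamp of the replication polymerases, had one of -0.04 ± 0.07, E2F1 one of -0.27 ± 0.14, CCNE1 (cyclin E1) 0.03 ± 0.08 and the chromatin remodeller HELLS 0.12 ± 0.06, none called. Over the 16 S-phase genes, 12 had a positive value and the median was 0.10.

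**Figure D1:**
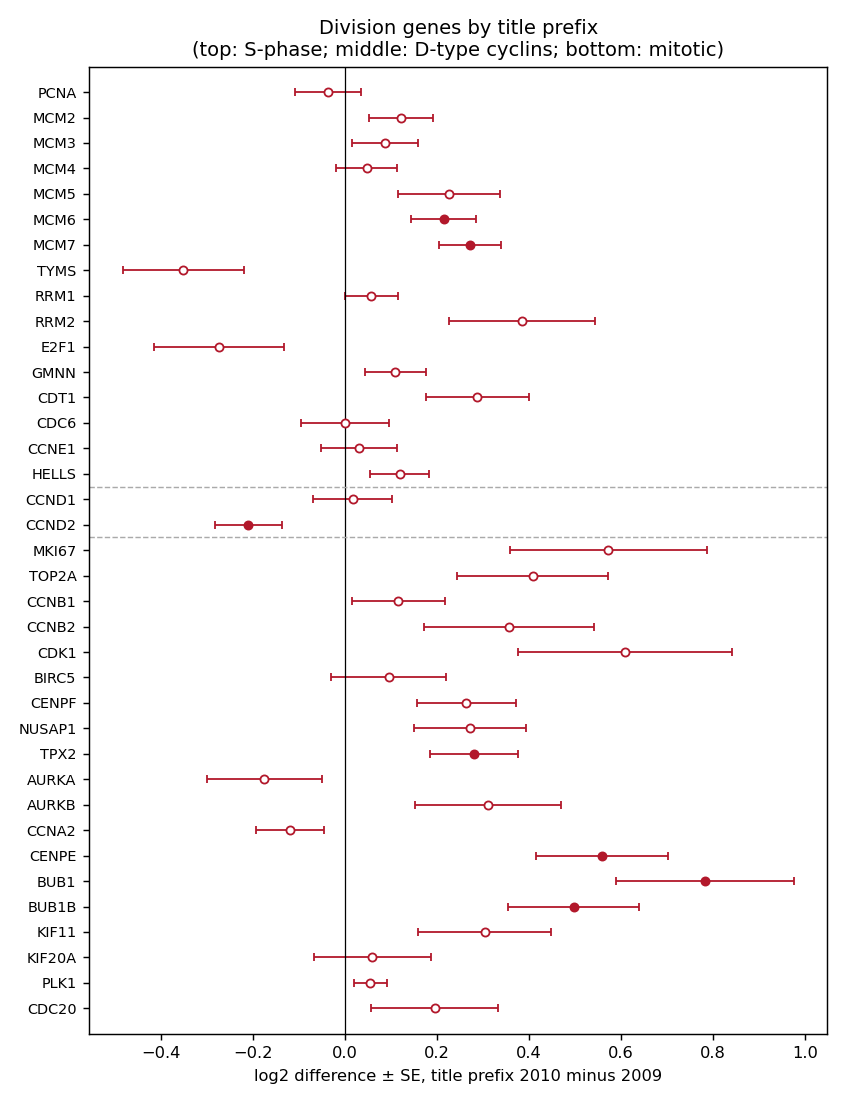
Each point is the fitted log2 difference of 1 gene between the 16 libraries of prefix-2010 and the 14 of prefix-2009, with bars of 1 SE; filled points passed an adjusted p under 0.05. Most mitotic genes at the bottom lie right of 0, with BUB1 farthest at 0.78, while the S-phase genes at the top lie closer to 0 and TYMS lies at -0.35.

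CCND2, a D-type cyclin of neural progenitors that pairs with CDK4 and CDK6 in G1, was the only member called lower. It ranged from 404 to 584 CPM in prefix-2009 (median 513) and from 295 to 593 CPM in prefix-2010 (median 450). In prefix-2010, 3 of 16 libraries exceeded the prefix-2009 median, yet the highest library of all was 1 of them. The log2 difference of -0.21 ± 0.07 (edgeR adjusted p = 0.0473) lost its call in 23 of 32 fits that each left out 1 library. It was also lost in 5 of 9 other settings, among them library totals in place of the scaling. CCND1, its close relative, had a median of 48.7 CPM in both prefixes and a log2 difference of 0.02 ± 0.09.

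**Figure D2:**
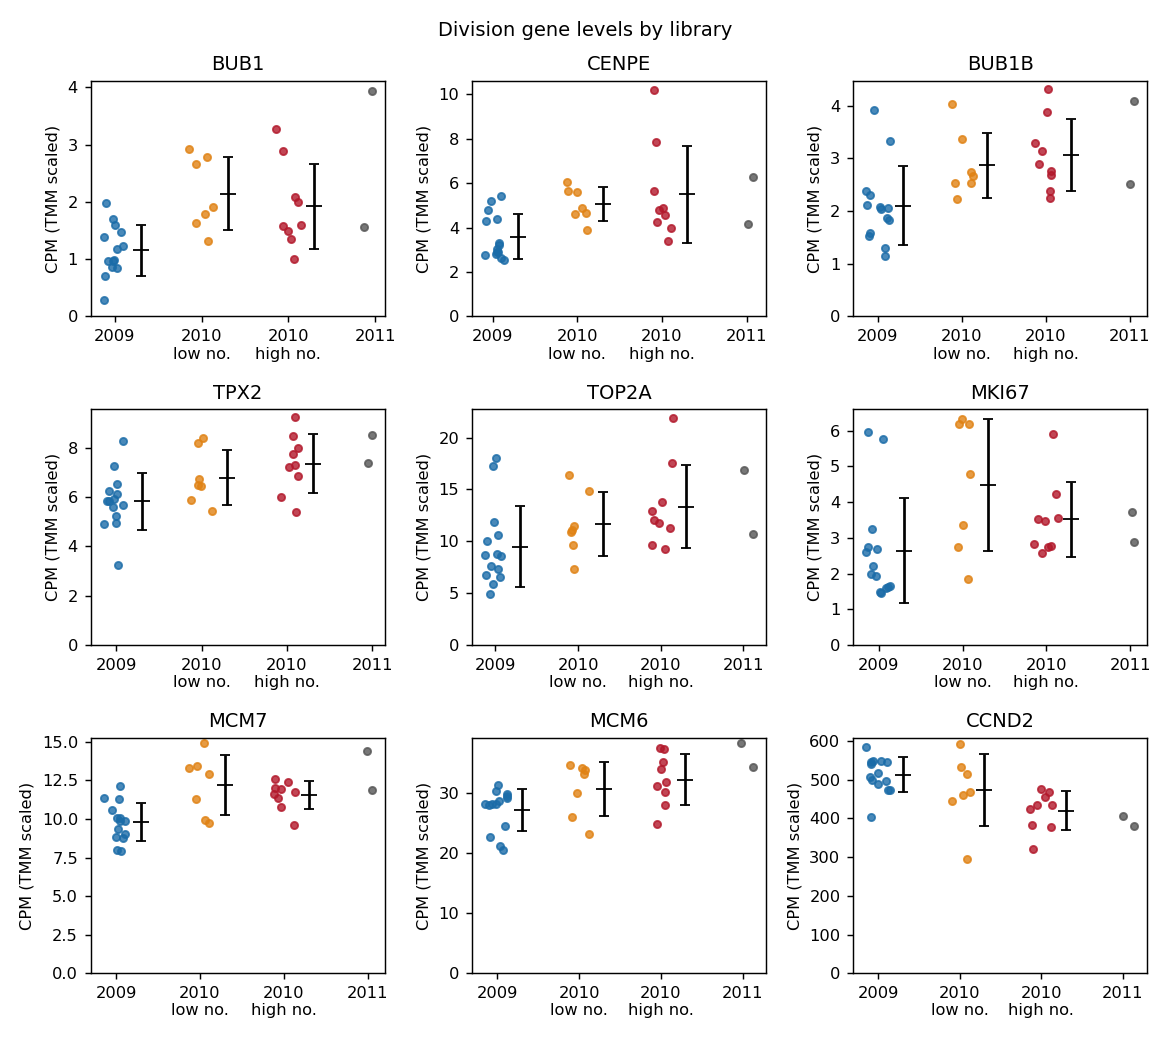
CPM of 9 members in every library by title prefix, with prefix-2010 split at a second title number of 20000; black marks give the mean ± SD of groups with more than 2 libraries. The groups overlap for every gene, and for TOP2A and MKI67 2 libraries of prefix-2009 stand above the other 12.

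How firmly the 7 calls stood differed. BUB1, BUB1B, CENPE and MCM7 passed in all 32 fits that each left out 1 library. The number of called members fell from 7 to 4 without replicate 3 of prefix-2009, or without replicate 6, 12, 13, 14 or 15 of prefix-2010. Within the libraries of low second number alone, BUB1 (log2 difference 0.88, edgeR adjusted p = 0.0246) and MCM7 (0.32, edgeR adjusted p = 0.0472) were still called and the other 5 were not. In that fit, 715 of all 21377 genes were called higher and 469 lower, so calls fell over all genes as well. Within prefix-2010, the 9 libraries of high and the 7 of low number differed in 0 members by edgeR and 0 by DESeq2. There 0% of all genes were called by edgeR, while DESeq2 called 113 genes. At an unadjusted edgeR p under 0.05 only CDT1 passed (log2 difference -0.30, high minus low), against 12.9% of all genes.

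Other genes of the same pathways were counted from lists of textbook members. Of 39 other replication genes, 8 were higher in prefix-2010 and 0 lower, and of 34 other mitotic genes 8 were higher and 1 lower. Over all genes tested, 7.52% were called higher and 6.38% lower. UHRF1, which directs maintenance DNA methylation behind the fork, had medians of 3.12 and 5.80 CPM in prefix-2009 and prefix-2010 and the largest difference of both lists that was positive, a log2 value of 1.27 ± 0.20 (edgeR adjusted p = 0.000273). LIG1, the ligase of Okazaki fragments, had 0.23 ± 0.05 (edgeR adjusted p = 0.00265), and DNMT1, the maintenance methyltransferase, 0.13 ± 0.04 (edgeR adjusted p = 0.0227). Among the mitotic genes, the condensin subunit NCAPG was higher by a log2 value of 0.59 ± 0.13 (edgeR adjusted p = 0.0024), the spindle pole gene ASPM by 0.72 ± 0.17 (edgeR adjusted p = 0.00529) and the kinesin KIF18A by 0.72 ± 0.17 (edgeR adjusted p = 0.00581). The exception was ANLN, anillin, which had medians of 73.9 and 37.9 CPM and a log2 difference of -1.03 ± 0.29 (edgeR adjusted p = 0.0178). Anillin is known from cytokinesis and is also expressed by myelinating oligodendrocytes.

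Regulators of the G1 phase were also counted. Of 12 tested G1 cyclins, kinases and E2F genes, 4 were higher and 1 lower, against 7.52% and 6.38% of all genes tested. CDK4 was higher (log2 difference 0.23 ± 0.05, edgeR adjusted p = 0.00238) and CDK6, the other partner of D-type cyclins, was lower (-0.38 ± 0.08, edgeR adjusted p = 0.00251). Of 13 cell cycle brakes, 2 were higher and 0 lower, against the same shares. These were the CDK inhibitors CDKN1C (0.62 ± 0.14, edgeR adjusted p = 0.00408) and CDKN1A (0.38 ± 0.13, edgeR adjusted p = 0.0497).

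Markers of cell types that divide, or are newly born, were also counted between the prefixes, beside 7.52% of all genes called higher and 6.38% lower. Of 9 oligodendrocyte precursor markers, 6 were higher in prefix-2010 and 0 lower, and their summed level ran from 946 to 1733 CPM in prefix-2009 and from 1273 to 1983 CPM in prefix-2010. Of 11 neural progenitor markers, 4 were higher and 0 lower (590 to 964 against 774 to 1325 CPM). Of 12 immature neuron markers, 10 were higher and 0 lower (1266 to 2376 against 1445 to 3340 CPM). No gene of these lists was at 0 in every library, and their part in the differences of the division genes was not tested. Of 7 microglia markers 2 were called higher, although 5 of the 7 had a negative log2 difference and the median was -0.09. Of 8 endothelial markers 1 was called higher, and of 9 mural and fibroblast markers 1. Among mature oligodendrocyte markers 0 of 9 were called, and among astrocyte markers 0 of 7. Of 3 tested blood cell markers 1 was lower.

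Set against each other by library, the S-phase and mitotic genes did not move as a single block. The mean log2 CPM of the 16 S-phase genes was 3.14 ± 0.10 (SD, n = 14) in prefix-2009 and 3.22 ± 0.10 (SD, n = 16) in prefix-2010. The mean of the 19 mitotic genes was 1.78 ± 0.23 and 2.07 ± 0.22. The first shift, 0.08, was smaller than the spread between libraries, and the second, 0.29, was a little larger. The S-phase mean minus the mitotic mean was 1.37 ± 0.22 in prefix-2009 and 1.15 ± 0.26 in prefix-2010, and the 2 groups overlapped. No p is given for these means, since the members were chosen with earlier results of these data known.

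Across libraries within a prefix, Pearson's r between the S-phase and mitotic means was 0.35 (n = 14) in prefix-2009, or 0.21 without the 2 libraries of most extreme S-phase mean. It was -0.13 (n = 16) in prefix-2010, or -0.25 without 2 such libraries. These correlations are descriptions of libraries that share depth and composition effects. The library with the highest mitotic mean of all, replicate 15 of prefix-2010 at 2.65, had an S-phase mean of 3.14, below the median of its prefix. The library with the lowest mitotic mean of prefix-2010, replicate 1 at 1.67, had the highest S-phase mean of that prefix, 3.35.

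**Figure D3:**
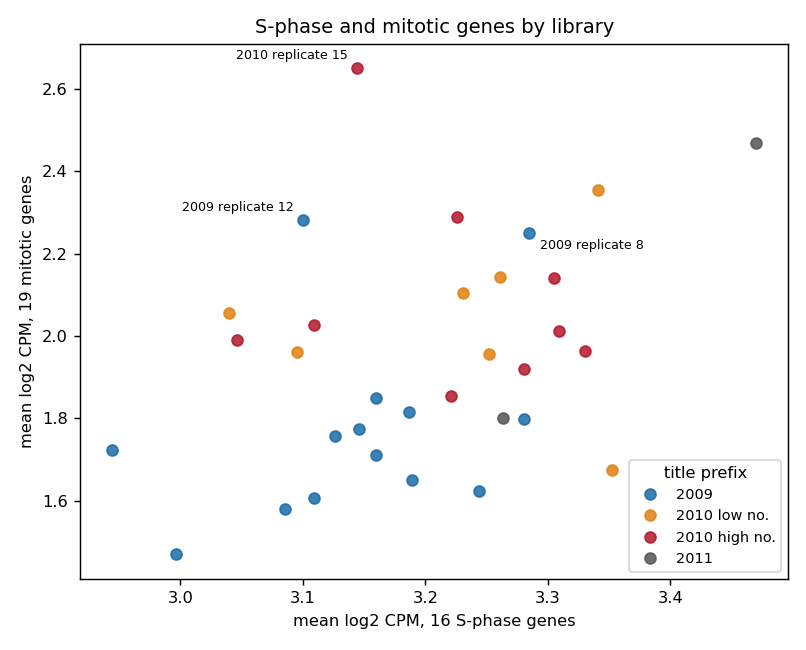
Each point is 1 library, placed by the mean log2 CPM of the 16 S-phase genes (x axis) and of the 19 tested mitotic genes (y axis), and coloured by title prefix and second title number. The mitotic mean spans 1.47 to 2.65 and the S-phase mean 2.94 to 3.47, with no common line through either prefix.

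Pairs of genes gave the same picture at finer grain. Over 171 pairs of mitotic genes, the median r across libraries was 0.26 in prefix-2009 and 0.43 in prefix-2010, with 74.3% and 92.4% of pairs positive. Over 120 pairs of S-phase genes it was 0.11 and 0.16, and over 304 pairs of an S-phase with a mitotic gene 0.06 and -0.04. Pairs drawn from every 10th tested gene had medians near 0, and 49.8% and 49.9% of them were positive. Within the mitotic list, genes close to the mean of the others in both prefixes included KIF11, a spindle kinesin (r = 0.81 in prefix-2009 and 0.76 in prefix-2010), TOP2A (0.76 and 0.91) and CENPF, a kinetochore protein (0.66 and 0.91).

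A few members stood apart from their own list. PLK1, the polo-like kinase of mitotic entry, ranged only from 25.4 to 31.6 CPM over prefix-2009 and prefix-2010, and its r with the other mitotic genes was -0.59 in prefix-2009 and 0.21 in prefix-2010. CCNA2 had r values of -0.15 and 0.31. PLK1 had the smallest biological coefficient of variation of all members, 0.064, beside a median of 0.20 for the mitotic genes, 0.13 for the S-phase genes and 0.15 for all genes tested. The largest were those of MKI67 (0.38), CDK1 (0.38), BUB1 (0.31) and TOP2A (0.30). CCNB1, cyclin B1, had r = 0.68 and 0.45 with the S-phase genes, and 0.25 and 0.42 with the other mitotic genes. By the RefSeq gene table, 14 of the 38 members overlap another gene, 6 of them a protein-coding one. PLK1 overlaps DCTN5, CCNA2 overlaps EXOSC9, KIF20A overlaps CDC23, NUSAP1 overlaps OIP5, MCM2 overlaps TPRA1 and PCNA overlaps LOC103246919. Whether the authors counted by strand is not stated, so reads of such neighbours could be shared and these values are uncertain.

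Both means were set beside 2 measures of the libraries, their depth and their share of reads outside genes. Against the log2 gene count total, r over libraries was 0.73 in prefix-2009 and 0.47 in prefix-2010 for the S-phase mean, and 0.31 and -0.13 for the mitotic mean. Against the share of reads in no gene feature, r was -0.73 and -0.58 for the S-phase mean, and -0.17 and 0.05 for the mitotic mean. Without the 2 libraries of most extreme total, the values were 0.80 and 0.54 for the S-phase mean and -0.20 and -0.37 for the mitotic mean, which turned its sign in prefix-2009. Without the 2 of most extreme share they were -0.47 and -0.36 for the S-phase mean and 0.28 and 0.15 for the mitotic mean, which again turned its sign in prefix-2009. With that share in the model, 8 members were called higher and 2 lower between the prefixes, and with the library total 9 were called higher and 0 lower. Calls rose over all 21377 genes as well, from 1608 higher and 1364 lower without a covariate. They became 2257 higher and 2106 lower with the share, and 2439 and 2083 with the total. MCM7 and MCM6 passed in both fits, and with the share MKI67 (log2 difference 0.60), CDT1 (0.30) and TYMS (-0.37) passed as well. With the total, CDK1 (0.73), CENPF (0.33) and MCM2 (0.17) passed in addition. CCND2 passed with the share but not with the total.

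The other mitotic genes followed the mitotic members closely, with r = 0.90 in prefix-2009 and 0.81 in prefix-2010 between the list means. The other replication genes followed the S-phase members with r = 0.68 and 0.36. Without the 2 libraries of most extreme x value, these were 0.79 and 0.65 for the mitotic and 0.72 and 0.21 for the replication genes. Among cell type marker means, that of the immature neuron markers had r = 0.82 with the mitotic mean in prefix-2009 and 0.32 in prefix-2010. Without 2 such libraries these became 0.36 and -0.16, so the relation rested on those libraries and turned its sign in prefix-2010. The oligodendrocyte precursor mean had r = 0.38 and 0.48 with the mitotic mean, and -0.37 and -0.49 with the S-phase mean. Without 2 such libraries the values were 0.40 and 0.31 with the mitotic mean, and -0.10 and -0.43 with the S-phase mean. Such values were not particular to precursors. With the mitotic mean, mural and fibroblast markers had r = 0.56 and 0.51, endothelial markers 0.29 and 0.49, and neural progenitor markers 0.30 and 0.36. Leaving out 2 libraries gave 0.17 and 0.08, 0.59 and 0.0009, and 0.09 and 0.38 in the same order. Means of the remaining cell types ran from -0.36 to 0.30.

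Because newborn neurons follow from progenitor division, each member was also fitted against an immature neuron score, the mean of 12 standardised markers such as DCX and SOX4 that holds none of the members. Slopes are log2 changes per SD of the score. Within prefix-2009, 3 members were higher with the score, all mitotic, and 0 were lower, against 0.856% and 0.922% of all genes called. They were TOP2A (0.79 ± 0.17, edgeR adjusted p = 0.0143), TPX2 (0.44 ± 0.11, edgeR adjusted p = 0.0382) and KIF11 (0.60 ± 0.16, edgeR adjusted p = 0.0468). At an unadjusted p under 0.05, 12 members passed, all with a positive slope, against 17.7% of all genes. The largest slopes that missed the adjusted threshold were those of CDK1 (0.91 ± 0.27, edgeR adjusted p = 0.0706) and MKI67 (0.83 ± 0.24, edgeR adjusted p = 0.0635). MKI67 was called with the no-feature share (slope 1.04) or the library total (1.15) as covariate, and with DCX for the score (1.03). It was called in no other of the 9 settings, and TPX2 was not called in those where MKI67 was. Of the 9 settings, TOP2A kept its call in 8, TPX2 in 5 and KIF11 in 5.

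The calls depended on single libraries. Replicates 8 and 12 of prefix-2009 had the 2 highest scores of their prefix, 0.54 and -0.06 SD. They also had the highest TOP2A levels, 17.3 and 17.98 CPM, where the other 12 libraries ran from 4.92 to 11.8 CPM. For MKI67 they held 5.97 and 5.77 CPM, and the other 12 ran from 1.46 to 3.24 CPM. TOP2A lost its call without replicate 1, 8 or 12 of prefix-2009, TPX2 without 1, 9, 10 or 12, and KIF11 in 18 of 30 fits that each left out 1 library. Each of these calls was lost without replicate 12 and also without replicate 1. Replicate 1 had the lowest score of all libraries (-1.66 SD), the lowest gene count total and the highest share of reads in no feature. Without replicate 12 no member was called, and 1 was called without replicate 8 or without replicate 9. Without both 8 and 12, TOP2A kept a slope of 0.56 (edgeR adjusted p = 0.302), TPX2 one of 0.65 (edgeR adjusted p = 0.0543) and KIF11 one of 0.31 (edgeR adjusted p = 0.548). The 1 member then called was CCNB1 (0.81, edgeR adjusted p = 0.0396).

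**Figure D4:**
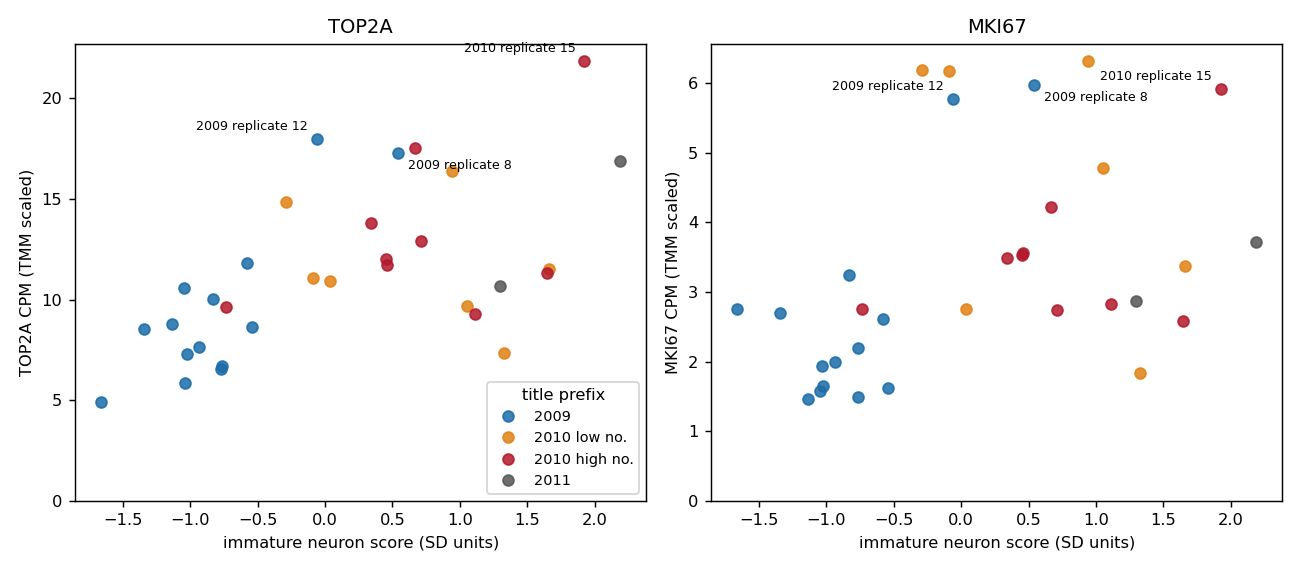
TOP2A and MKI67 level in CPM (y axes) against the immature neuron score in SD units (x axes), 1 point per library, coloured by title prefix and second title number. Replicates 8 and 12 of prefix-2009 lie at 17.3 and 17.98 CPM of TOP2A, above the other 12 libraries of that prefix, and replicate 15 of prefix-2010 is highest at 21.9 CPM.

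Within prefix-2010, 0 of 37 members were called against the score by edgeR and 0 by DESeq2, while 7.11% of all genes were called by edgeR. At an unadjusted p under 0.05, 6 members passed, against 20.5% of all genes. BUB1 (0.37 ± 0.15, edgeR adjusted p = 0.126), CENPE (0.29 ± 0.12, edgeR adjusted p = 0.142) and MCM6 (0.16 ± 0.06, edgeR adjusted p = 0.143) had positive slopes. CCND1 (-0.20 ± 0.08, edgeR adjusted p = 0.135), E2F1 (-0.32 ± 0.13, edgeR adjusted p = 0.139) and TYMS (-0.28 ± 0.12, edgeR adjusted p = 0.171) had negative ones. E2F1 was called lower once the share of reads in no feature (-0.35, edgeR adjusted p = 0.0493) or the library total (-0.40, edgeR adjusted p = 0.0258) entered the model. TOP2A, called in prefix-2009, had a slope of 0.11 ± 0.12 here and MKI67 one of -0.06 ± 0.17.

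The difference between the slopes of the 2 prefixes was tested itself. No member passed by edgeR or by DESeq2, nor did any other gene by edgeR (0%). At an unadjusted p under 0.05, 8 members passed, against 6.15% of all genes. Of these, 7 had a lower slope in prefix-2010, led by MKI67 (-0.89 ± 0.30, unadjusted edgeR p = 0.00522 over 30 libraries) and TOP2A (-0.68 ± 0.21, unadjusted edgeR p = 0.00331 over 30 libraries). The other was PLK1 (0.13 ± 0.06).

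**Figure D5:**
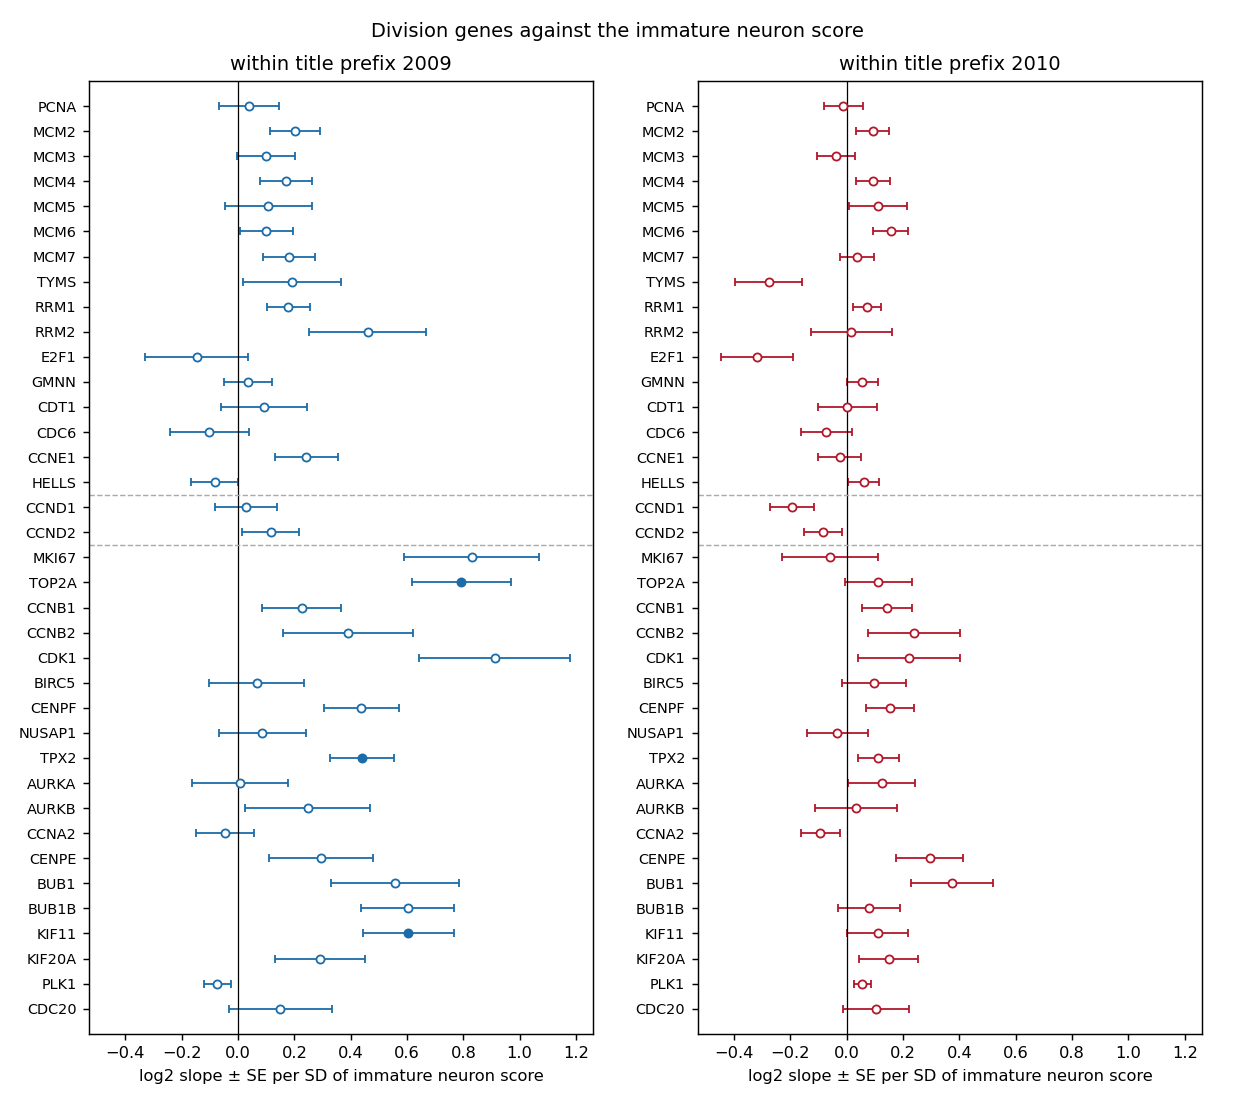
Fitted log2 slope of each tested member per SD of the immature neuron score, with bars of 1 SE, within prefix-2009 (left) and prefix-2010 (right); filled points passed an adjusted p under 0.05. TOP2A, TPX2 and KIF11 pass on the left, and no member passes on the right.

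The same pathways beyond the members were counted against the score. Of all genes, 0.856% were called higher and 0.922% lower in prefix-2009. In prefix-2010, 7.11% were called in either direction, 684 higher and 835 lower of 21377. In prefix-2009, 1 of 39 other replication genes was higher with the score, UHRF1 (0.77 ± 0.12, edgeR adjusted p = 0.000641), and 4 of 34 other mitotic genes were higher. They included ASPM (0.94 ± 0.15, edgeR adjusted p = 0.000688), the spindle gene CKAP2 (0.84 ± 0.16, edgeR adjusted p = 0.00381) and NCAPG (0.55 ± 0.13, edgeR adjusted p = 0.0181). In prefix-2010, 3 of the 39 other replication genes were higher and 0 lower, beside 684 higher of all 21377 genes. They were led by UHRF1 (0.81 ± 0.08, edgeR adjusted p = 8.49e-08). Of the other mitotic genes 3 were higher and 1 lower there, and the lower one was ANLN (-1.32 ± 0.18, edgeR adjusted p = 2.26e-05). Markers of other cell types moved with the score as well. In prefix-2009, 3 of 11 neural progenitor markers (FABP7, EOMES and NES) and 4 of 9 mural and fibroblast markers were higher, among them COL3A1 (1.79 ± 0.22, edgeR adjusted p = 2.28e-05). The summed mural and fibroblast level there ran from 203 to 665 CPM, with a median of 251. In prefix-2010, 4 of 9 mature oligodendrocyte markers were lower with the score, and their summed level ran from 2086 to 8733 CPM. Other lists moved there too. Of 7 microglia markers 3 were lower and 1 higher, and of 7 astrocyte markers 1 was lower. Of 11 neural progenitor markers 2 were higher, and of 9 oligodendrocyte precursor markers 1. The part of all these markers in the slopes of the division genes was not tested.

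Genes outside all lists were ranked by how closely they followed the mean of the mitotic members over 30 libraries, after each prefix had been centred. Among 19457 genes with a mean of at least 1 CPM, 5 of the 10 closest were named histone genes: H2AC17 (r = 0.81), H1-5 (0.78), H2BC17 (0.78), H1-3 (0.71) and HIST1H2AL (0.69). Another 3 carried only a gene number, LOC103221996 being the closest of all with r = 0.85, and the last 2 were ZNF284 and FLNA, both at 0.68. Most histone genes of this kind are transcribed during replication and make RNA without a poly(A) tail, which libraries from ribosome-depleted total RNA retain. H1-5, a linker histone, ran from 1.82 to 11.6 CPM in prefix-2009 (median 4.13) and from 3.55 to 14.1 CPM in prefix-2010 (median 8.44). Its log2 difference between the prefixes was 0.84 ± 0.24 (edgeR adjusted p = 0.0172), and its slope on the score in prefix-2009 was 1.33 (edgeR adjusted p = 0.00074). The groups overlapped, and near-identical histone copies could share reads in the counting.

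A wider set of histone rows, chosen by name after these values had been seen, divided. Of 23 such rows 20 were tested. Among them were H2AC17, H1-5, H2BC17, H1-3 and HIST1H2AL, picked above for their high r with the mitotic mean. These genes hold the highest r in both prefixes, so the 20 rows are no independent comparison for the mitotic mean. Over the 20 rows, r with the mitotic mean ran from -0.04 to 0.85 in prefix-2009 and from -0.33 to 0.80 in prefix-2010, with medians of 0.44 and 0.30. With the S-phase mean the medians were 0.60 and 0.38. Over all other tested genes the medians were 0.02 and 0.00 for the mitotic mean and -0.02 and 0.00 for the S-phase mean. An r over 0.5 with the S-phase mean was common. It was found for 16.5% and 7.54% of those genes, and for 18 and 7 of the 20 rows. With the mitotic mean it was found for 5.48% and 1.94% of them, and for 9 and 8 rows. The S-phase mean itself varied with library depth, as given above. H2BC12 had r = 0.07 and -0.33 for the mitotic mean and 0.78 and 0.51 for the S-phase mean. H2BC4 also had higher r with the S-phase mean (0.07 and 0.03 against 0.77 and 0.65).

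The genes closest to the S-phase mean were of another kind. They were TMEM259 (r = 0.80), KIAA0141 (0.78), LOC103221625 (0.77), P4HB (0.77), SRSF2 (0.76), PRELID1 (0.75), PSME1 (0.75), GLB1 (0.74), CUTA (0.74) and RCOR2 (0.74). None of the 9 named by a symbol is a histone gene, and LOC103221625 carries only a gene number. P4HB, which forms disulfide bonds in the endoplasmic reticulum, and SRSF2, a splicing factor, are transcribed in most cells.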

How the data were processed

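RNA of 32 hippocampi was measured by stranded sequencing of ribosome-depleted total RNA, per the labels' protocols. The deposited table holds raw counts of reads per gene; STAR and HTSeq were used, per the submitters' processing notes, while their versions, the build, annotation and strand setting were not given in the sources used here. Its 33999 rows include 5 summary rows, kept out of library sizes and tests; the largest, reads in no feature, took 51.3% to 67.1% of reads. Of rows named by gene number, 825 received a symbol from RefSeq's gene table (assembly mChlSab1.0.hap1). Genes with 10 or more counts in at least 16 libraries (21377) were tested with edgeR 4.0.16 in R 4.3.3 (TMM scaling, glmQLFit, glmQLFTest) with Benjamini-Hochberg adjustment over all of them; SE is the log2 value over the root of F. The prefix fit used all 32 libraries, prefix-2011 as its own level; the score fit used 30. Log2 CPM used a prior count of 2. Alternatives were other scalings, count filters, DESeq2 1.42.0, covariates, subsets, DCX for the score and leaving out each library; leaving out 2 libraries together was added after seeing the data. The scripts were tested on simulated data. Members and lists were chosen with earlier results of these data known. Every member could be named; full statistics went to called members, the 3 called genes of smallest p per other list and direction, and the 10 genes most alike. Separate animals are inferred from the titles, so p-values measure the spread between these libraries. Floors cover counting error only, while SE and SD include the spread between libraries.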

Additional observations from a re-analysis of the deposited data

Results flagged for a closer look

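The level of each of the 37 tested members was checked for a single far library within the 7 low-number and within the 9 high-number libraries of prefix-2010. By Dixon's gap test, which chance passes in about 1 in 20 groups, 3 of 74 checks passed. NUSAP1, a spindle microtubule protein, was at 2.18 CPM in replicate 1 of prefix-2010, and the nearest of the other 6 low-number libraries held 4.10 CPM. That library also had the lowest mitotic mean and the highest S-phase mean of its prefix. In replicate 15 of prefix-2010, MKI67 was at 5.91 CPM and CENPF at 40.5 CPM, where the nearest of the other 8 high-number libraries held 4.22 and 27.9 CPM. Low-number libraries of the prefix reached 6.32 CPM of MKI67, so that value was far only among the high-number libraries. For CENPF they reached 28.1 CPM. Replicate 15 had the highest mitotic mean of all 32 libraries, and without it 4 of the 7 members called between the prefixes passed.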

How the results depend on the processing

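The 10 called gene results (7 between the prefixes, 3 on the score) kept their sign in every alternative run; of the correlations printed, 3 of the mitotic mean (with the immature neuron markers in prefix-2010, and with the library total and the no-feature share in prefix-2009) changed sign without 2 libraries. Of 7 members called between the prefixes, 4 passed with no count filter and 2 among low-number libraries alone; leaving out 1 library gave 4 to 10. Over all genes, 2972 calls became 4522 with the library total as covariate and 1184 among low-number libraries, and ran from 2255 to 3812 without 1 library. Between number sets, 0 members passed in every fit, and 0 of all genes became 2 with 10 counts required in all libraries, 113 by DESeq2, and 0 to 31 without 1 library. For the score within prefix-2009, 3 called members became 5 by DESeq2, 1 without replicates 8 and 12 together, and 0 to 4 without 1 library. Over all genes 380 became 683 by DESeq2, 214 with the library total, 78 with DCX for the score, 2740 without those 2 libraries, and 154 (without replicate 1 of prefix-2009) to 532 without 1. Within prefix-2010, 0 called members became 1 with the no-feature share and 1 with the library total as covariate, and 0 without any 1 library. There, 1519 genes became 2321 with the no-feature share, and 715 (without replicate 16 of prefix-2010) to 1923 without 1. For the difference of slopes, 0 genes became 1 with no count filter, 1 with DCX, 425 without replicates 8 and 12, and 0 to 3 without 1 library, with 0 members in each. Fits with fewer libraries or more genes change the counts by construction; for the rest the cause was not tested. Library totals in place of scaling moved the median log2 difference of all genes between the prefixes to 0.035. No paired analysis was possible because the labels give no replicate numbers shared between groups. The study's ages lie within a single label, so no change with age could be tested.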

Other observations

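The 2 libraries of prefix-2011, too few for a comparison, differed from each other. Replicate 1 had the highest S-phase mean of all 32 libraries, 3.47 (log2 CPM), and a mitotic mean of 2.47, with TOP2A at 16.9 and MKI67 at 3.71 CPM. Replicate 2 had an S-phase mean of 3.26 and a mitotic mean of 1.80, with TOP2A at 10.7 and MKI67 at 2.87 CPM. Their immature neuron scores were 2.19 and 1.30 SD, and the first is the highest of all libraries.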
